A study of Mus musculus with 4 samples.

Results

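The interleukin-1 (IL-1) family comprises cytokines and receptors that start and restrain inflammation. Here it is represented by 9 genes, namely the ligands Il1a, Il1b, Il18 and Il33, the natural receptor antagonist Il1rn, the receptors Il1r1, Il1r2 and Il1rl1, and the shared receptor chain Il1rap. All probe sets that the platform annotation pairs with exactly 1 of these symbols were taken, which gave 15 probe sets for 8 genes, among 45037 probe sets and 18193 named genes in all. Il1rl1, the receptor of IL-33, had no such probe set and is not analysed here. Total RNA of 4 lines of C57BL/6 mouse mesenchymal stem cells (MSC), plastic-adherent stromal cells, had been hybridised to Affymetrix arrays, 2 lines from flushed colon and 2 from bone marrow, with 1 array for each line. All lines were grown in low-glucose medium with 10 mM HEPES and 10% serum and lysed between passages 5 and 10. The labels name no cytokine or other treatment, no genetic change, and no age or sex. They call the arrays biological replicates, without saying whether lines came from separate mice, so p-values measure the spread between these lines only.

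IL-1 alpha and IL-1 beta bind the receptor Il1r1, which then recruits Il1rap, the chain that IL-33 also uses through its own receptor. The assembled receptor passes the signal through the adaptor Myd88 and the Irak kinases to NF-kB, a transcription factor of inflammatory genes. Il1rn occupies Il1r1 without recruiting the second chain, and Il1r2 is a decoy that binds ligand without signalling. IL-1 beta and IL-18 are made as precursors that caspase 1 cleaves within inflammasomes, and stromal cells such as fibroblasts are known chiefly as responders to IL-1.

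In these lines the messages with mean signal above the low range were those of the antagonist Il1rn, the ligands Il18 and Il1b, the receptor Il1r1 and its partner Il1rap. Il1rn and Il18 had the higher signals in both bone marrow lines. Il1rap stood out in colonic replicate 1, and Il1r1 was lowest in colonic replicate 2. The mean signals of Il1a, Il33 and Il1r2 lay in the low range, as did Il1rn on both colonic arrays. No member passed the test across all probe sets, with limma adjusted p-values from 0.596 upward, so each of these is a description of 4 lines.

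A probe set was tested when its mean intensity over the 4 arrays exceeded 33.3, the 40th percentile. Of the 15 probe sets 8 passed, covering 5 genes, and 7 did not, which left 3 genes (Il1a, Il33 and Il1r2) without a tested probe set. A probe set with signal in 1 tissue alone can pass through that tissue, and both tested Il1rn probe sets did so, since their colonic intensities all lay under 33.3. Intensities have no fixed unit and are compared between arrays for the same probe set, never between probe sets. Sums over a marker list follow its brightest genes and do not measure how many such cells were present. In bulk RNA, fewer cells carrying a message and less message per cell cannot be told apart.

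The arrays were alike in overall level, with medians between 53.6 and 55.5, and log2 values of tested probe sets correlated with r = 0.950 between the bone marrow lines, 0.938 between the colonic lines and 0.910 to 0.945 across tissues. Of 10 MSC surface markers 9 were tested; Itgb1 and Cd44 were bright on all 4 arrays, whereas Thy1 (CD90) read 32.8 and 22.0 in the bone marrow lines and 4516 and 9032 in the colonic lines. Low Thy1 goes against the usual MSC surface definition for the bone marrow lines. Nt5e (CD73), in its tested probe set, read 76.3 and 27.9 in the bone marrow lines and 209 and 27.6 in the colonic lines. Its signal was thus under 33.3 in replicate 2 of both tissues. Alcam lay between 6.77 and 37.0 in colonic replicate 2 over its tested probe sets, whereas Eng read 1035 and 1289 there. Among 8 endothelial markers, whose cells make Il33, the signals summed over the brightest probe set of each gene on each array were 210 and 143 on the bone marrow arrays and 285 and 217 on the colonic arrays, with Pecam1 at most 2.48 and Cdh5 at most 24.2. Of their 3 tested probe sets 1 had an unadjusted limma p below 0.05, as had 5.63% of all tested probe sets. It was that of Kdr, a VEGF receptor, at 31.9 and 18.5 on the bone marrow arrays and 91.1 and 68.9 on the colonic arrays (limma adjusted p = 0.594). Tek had a log2 difference of 0.62 ± 0.30 (SE), and Emcn reached 92.0 in colonic replicate 1. The Kdr and Tek probe sets passed the filter for testing through colon alone. Vwf, not tested, went the other way, at 37.0 and 9.63 on the bone marrow arrays and 6.88 and 8.16 on the colonic arrays.

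**Figure D1:**
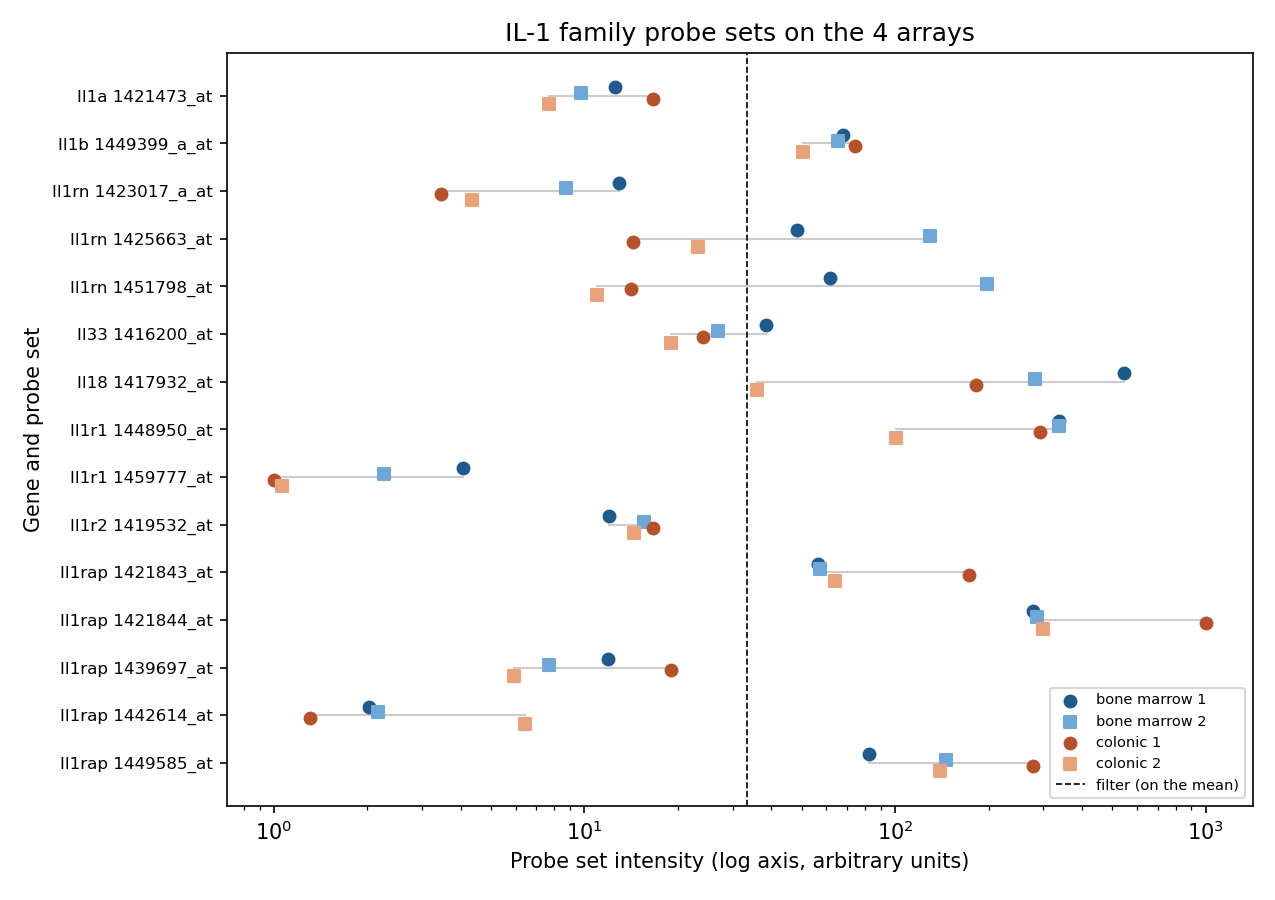
Intensity of each of the 15 IL-1 family probe sets (rows) on a log axis, with 1 symbol per array and a grey line from the lowest to the highest array; the dashed line marks the mean intensity of 33.3 that a probe set had to exceed to be tested. The bone marrow symbols lie to the right of the colonic ones for Il1rn and Il18, and colonic replicate 1 lies to the right of the other arrays in the 3 tested Il1rap probe sets.

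Across all tested probe sets 0 of 27022 (0%) passed an adjusted p of 0.05 with limma, and 1520 (5.63%) had an unadjusted p below 0.05, 853 higher and 667 lower in colon. Of the 8 tested family probe sets 0 passed and 3 had an unadjusted p below 0.05, 2 of them from Il1rn and 1 from Il18, all higher in bone marrow, a direction and p found in 2.47% of all tested probe sets. The arrays of the tissues did not overlap in 6 of the 8, against 33.4% of all tested probe sets. In 1 of the 8, an Il1rn probe set, the lowest bone marrow array exceeded the highest colonic one by 1 log2 unit or more, and 2.14% of all tested probe sets had a gap of that size in either direction. Several of these probe sets read the same gene and the Il1rn ones passed through bone marrow alone, so the counts are given as a description. The smallest p that an exact permutation test of 2 arrays against 2 can give is 0.333.

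Il1rn encodes the IL-1 receptor antagonist, the secreted brake of the pathway. Its probe set 1451798_at had intensities of 61.5 and 198 on the arrays of bone marrow replicates 1 and 2, and of 14.1 and 11.0 for colonic replicates 1 and 2. Every bone marrow value lay above every colonic value, and bone marrow replicate 2 was 3.21 times replicate 1. The means were 130 ± 96.2 and 12.5 ± 2.19 (SD, n = 2 each). The log2 difference, colonic minus bone marrow, was -2.27 ± 0.54 (SE) on the log2(intensity + 13.6) scale, with an unadjusted limma p of 0.00974 and an adjusted p of 0.596. This scale understates the ratio of low intensities.

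The second tested Il1rn probe set, 1425663_at, which the annotation ties to the same source record, read 48.4 and 130 on the bone marrow arrays and 14.4 and 23.3 on the colonic arrays. It had the same split between tissues and the same highest array, bone marrow replicate 2, with a log2 difference of -1.55 ± 0.47 (SE, limma adjusted p = 0.767). The probe set 1423017_a_at was not tested, and its values of 12.9 and 8.71 on the bone marrow arrays and 3.45 and 4.35 on the colonic arrays are all in the low range. There bone marrow replicate 1 was the higher of the bone marrow lines, unlike in the tested probe sets. Because 2 probe sets share a source record, they are repeated readings of 1 message and not separate evidence.

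Since the tissues did not overlap in either tested Il1rn probe set, leaving out 1 array could not change the sign of the difference. Its size moved. Without bone marrow replicate 2 the log2 difference of 1451798_at was -1.53, and without bone marrow replicate 1 it was -3.02. For 1425663_at the same omissions gave -0.95 and -2.16.

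Il18 encodes interleukin 18, a cytokine known for inducing interferon gamma in lymphocytes and made by macrophages and epithelia. Its probe set 1417932_at had intensities of 544 and 282 on the arrays of bone marrow replicates 1 and 2, and of 182 and 36.0 for colonic replicates 1 and 2. The tissues did not overlap, but the colonic lines were themselves 5.06-fold apart, with colonic replicate 2 lowest and colonic replicate 1 nearer to the bone marrow lines. The means were 413 ± 185 and 109 ± 103 (SD, n = 2 each). The log2 difference was -2.04 ± 0.77 (SE), with an unadjusted limma p of 0.0479 and an adjusted p of 0.881. It was -1.05 without colonic replicate 2 and -3.03 without colonic replicate 1, so colonic replicate 2 carried much of it.

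The epithelial keratin Krt19, among 10 epithelial markers, had the same order of arrays as Il18, at 6223 and 5083 on the bone marrow arrays and 1890 and 105 on the colonic arrays. The other tested epithelial genes did not share this order. Krt18, Krt20 and Cdh1 were highest in colonic replicate 1, at 125, 889 and 44.8. Krt8 was highest in bone marrow replicate 2, at 44.7. The defining epithelial markers Epcam, Cdh1 and Vil1 reached at most 19.6, 44.8 and 25.6 on any array. Summed over the brightest probe set of each epithelial gene, the list stood at 6441 and 5368 on the bone marrow arrays and 3077 and 294 on the colonic arrays, Krt19 making up most of it except in colonic replicate 2. Its part in the Il18 result was not tested.

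Macrophages also make Il18 and Il1rn. Of 15 macrophage and monocyte markers 8 genes had a tested probe set. The sum over all 15 genes, formed in the same way, was 3605 and 1299 on the bone marrow arrays and 1982 and 3081 on the colonic arrays. These sums overlapped between tissues and were set by a few bright genes. Ptprc, the pan-leukocyte phosphatase, reached at most 28.6, Adgre1 (F4/80) at most 32.1 and Tyrobp at most 2.15. Other markers had more signal and differed in their highest array. Csf1r, in its brightest probe set, read 266 and 148 on the bone marrow arrays and 324 and 244 on the colonic arrays. Cd68, at 57.8 and 28.9 against 74.0 and 55.8, was also highest in colonic replicate 1. Itgam was highest in bone marrow replicate 2, at 87.7. Lyz2, the myeloid lysozyme, and Fcer1g, an Fc receptor chain of myeloid cells, were highest in bone marrow replicate 1, at 1589 and 640, and so was Il18. They read 31.7 and 59.0 in bone marrow replicate 2, the line with the highest Il1rn. Cd14, the endotoxin co-receptor, lay between 573 and 963 on all 4 arrays. In colonic replicate 2, where Il18 was lowest, the leukocyte tetraspanin Cd53 was at 1333, against 155 in colonic replicate 1 and at most 15.7 in bone marrow. The part of these cells in the Il18 and Il1rn values was not tested.

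Il1b, the inducible and chiefly myeloid IL-1 ligand, read 68.2 and 65.7 on the bone marrow arrays and 74.6 and 50.7 on the colonic arrays. The tissues overlapped, with the highest and the lowest value both colonic. Its log2 difference was -0.10 ± 0.29 (SE), which leaves differences of modest size in either direction possible, and it turned to 0.13 without colonic replicate 2.

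Il1a, the IL-1 ligand that also acts as an alarm signal from damaged cells, lay between 7.71 and 16.6 on the 4 arrays. Il33, a nuclear alarm cytokine of stromal, endothelial and epithelial cells, read 38.3 and 26.9 on the bone marrow arrays and 24.1 and 18.9 on the colonic arrays. Both bone marrow values of Il33 lay above both colonic ones, in a range where its mean did not reach the limit for testing. With all probe sets tested, the log2 difference was 0.04 ± 0.23 (SE, limma adjusted p = 0.993) for Il1a and -0.39 ± 0.24 (SE, limma adjusted p = 0.979) for Il33. No detection call was used, so such values are not shown to be absence.

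Il1r1, the signalling receptor for IL-1, had in its probe set 1448950_at intensities of 336 and 337 on the arrays of bone marrow replicates 1 and 2, and of 292 and 101 for colonic replicates 1 and 2. The other lines were thus close together and colonic replicate 2 was 2.89 times lower than colonic replicate 1. The means were 337 ± 0.495 and 197 ± 135 (SD, n = 2 each). The log2 difference was -0.90 ± 0.55 (SE, limma adjusted p = 0.990). Without colonic replicate 2 it was -0.20 and without colonic replicate 1 it was -1.61, so the gap between tissues came from colonic replicate 2. The other Il1r1 probe set, 1459777_at, lay between 1.00 and 4.05 and carried no usable signal.

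Il1rap encodes the accessory chain that completes the receptors for IL-1 and IL-33. In probe set 1421844_at it read 277 and 285 in bone marrow and 1002 and 300.0 in colonic replicates 1 and 2. The bone marrow lines and colonic replicate 2 were nearly level, and colonic replicate 1 was 3.56 times the bone marrow mean. The means were 281 ± 5.64 and 651 ± 496 (SD, n = 2 each). The log2 difference of 0.94 ± 0.63 (SE, limma adjusted p = 0.990) became 0.09 without colonic replicate 1 and 1.78 without colonic replicate 2.

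Probe set 1421843_at, tied to the same source record, read 56.4 and 57.5 on the bone marrow arrays and 173 and 64.0 on the colonic arrays. Probe set 1449585_at, from another record, read 82.4 and 146 on the bone marrow arrays and 279 and 140 on the colonic arrays. Colonic replicate 1 was the highest array in each of these 3 probe sets, and in the last of them the tissues overlapped. Their log2 differences were 0.77 ± 0.48 and 0.78 ± 0.47 (SE), and without colonic replicate 1 they were 0.14 and 0.31. The untested probe sets 1439697_at and 1442614_at lay between 5.93 and 19.0 and between 1.31 and 6.42.

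Colonic replicate 1 also stood apart in single markers of other cells and in the sum of the mast cell list, though not in the sum of the epithelial list. Krt20, an intestinal keratin, was at 889 there and at most 29.4 elsewhere, and the mast cell tryptase Tpsab1 was at 253 there and at most 38.7 elsewhere. Of 9 mast cell markers 2 were tested, the sum over all 9 being 125 and 192 on the bone marrow arrays and 437 and 151 on the colonic arrays, with Cpa3 at most 6.66. Ms4a2 was also highest in colonic replicate 1, at 91.6. Kit, in its brighter probe set, went the other way, at 34.3 and 49.6 on the bone marrow arrays and 14.5 and 16.5 on the colonic arrays. Fcer1a reached at most 8.64. The part of such cells in the Il1rap values was not tested.

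Il1r2, the decoy receptor, lay between 12.0 and 16.6 on all 4 arrays, and the tissues overlapped. With all probe sets tested its log2 difference was 0.09 ± 0.18 (SE, limma adjusted p = 0.988).

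**Figure D2:**
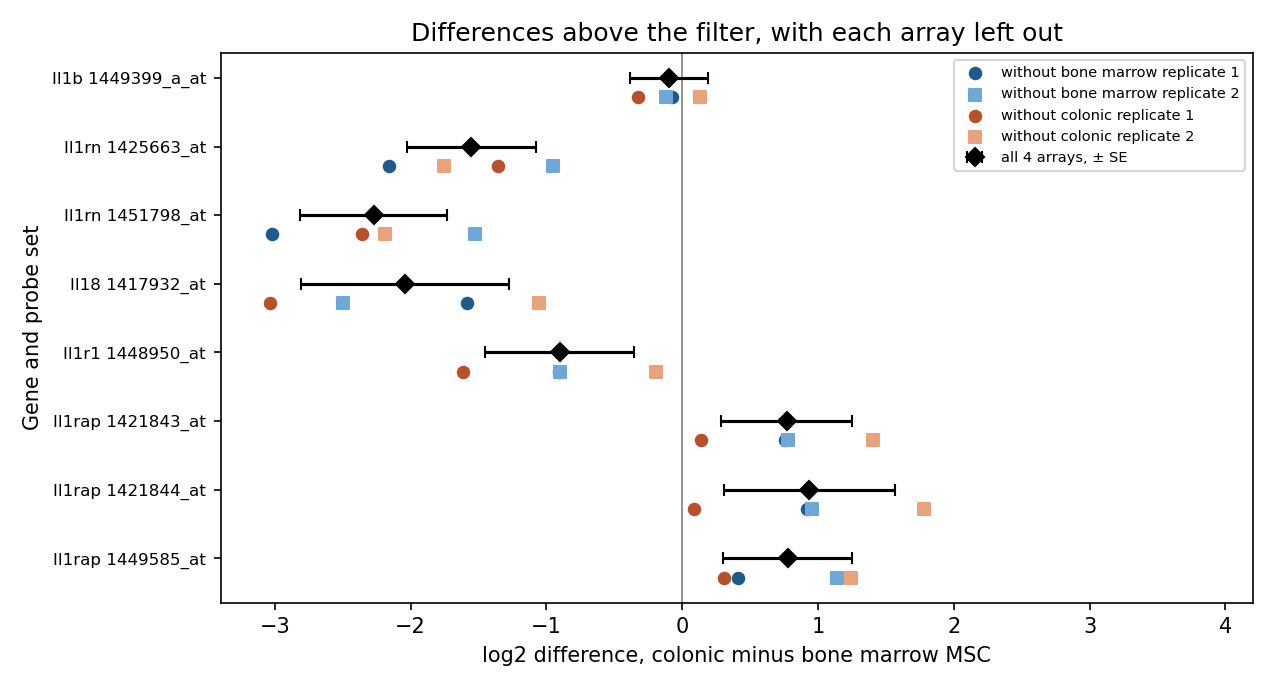
Log2 difference (colonic minus bone marrow MSC, horizontal axis) of the 8 tested IL-1 family probe sets (rows); diamonds with bars give the value from all 4 arrays ± SE, and the symbols under each diamond give it with 1 array left out. Il1rn and Il18 stay below 0 whichever array is left out, which is fixed in advance where the tissues do not overlap. Il1rap comes close to 0 without colonic replicate 1, and Il1r1 does so without colonic replicate 2.

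The start regions of 3 of these genes are shown because they belong to the members whose signals varied most between lines. Each window runs from 250 bases before to 50 bases after a start site, taken from RefSeq with the mouse build GRCm38.p6. Capitals mark CG dinucleotides. The first listed start of Il1rn is at chr2:24336610-24336909 (+ strand), the Il18 window at chr9:50554450-50554749 (+ strand) and the Il1rap window at chr16:26581455-26581754 (+ strand).
Il1rn: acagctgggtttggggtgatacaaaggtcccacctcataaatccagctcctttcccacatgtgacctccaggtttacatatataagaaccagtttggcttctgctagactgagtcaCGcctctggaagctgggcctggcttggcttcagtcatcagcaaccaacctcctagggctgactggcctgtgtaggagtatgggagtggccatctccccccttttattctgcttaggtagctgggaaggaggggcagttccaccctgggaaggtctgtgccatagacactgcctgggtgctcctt
Il18: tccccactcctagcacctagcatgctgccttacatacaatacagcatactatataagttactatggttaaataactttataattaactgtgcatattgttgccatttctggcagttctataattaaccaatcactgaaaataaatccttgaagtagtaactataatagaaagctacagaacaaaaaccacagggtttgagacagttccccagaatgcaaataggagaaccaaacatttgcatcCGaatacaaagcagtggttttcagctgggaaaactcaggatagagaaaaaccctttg
Il1rap: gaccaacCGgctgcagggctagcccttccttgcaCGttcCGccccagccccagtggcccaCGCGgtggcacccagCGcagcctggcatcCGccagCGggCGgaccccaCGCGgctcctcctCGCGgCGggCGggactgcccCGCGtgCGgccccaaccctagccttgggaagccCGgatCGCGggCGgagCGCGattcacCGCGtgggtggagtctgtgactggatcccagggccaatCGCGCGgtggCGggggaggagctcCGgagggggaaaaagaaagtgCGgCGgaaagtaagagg

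The windows differ in composition. The Il1rap window had 72% G and C and 33 CG dinucleotides, while the Il18 window had 36.7% and 1, and this Il1rn window 54.0% and 1. The median of all 32851 windows was 52.7% and 7. The AP-1 motif TGANTCA, searched on both strands, occurred in the Il1rn window as tgagtca, first base 141 bases before the start, and in neither of the other windows shown; 7.81% of all windows hold it. The motif TATAAA, searched on both strands, was found in the Il18 window as tttata, on the opposite strand, first base 175 bases before the start. It was in neither of the others shown, against 13.6% of all windows. The NF-kB (kappaB) consensus was in 1 of the 14 windows of the 9 genes, at the later start of Il1r1. It was in none of those shown, against 8.46% of all. RefSeq lists 2 further Il1rn starts, with 5 and 4 CG dinucleotides, whose windows overlap each other. These letters are a description of the windows and not of factor binding.

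In the RefSeq order of protein-coding genes Il1r2, Il1r1, Il1rl2, Il1rl1 and Il18r1 follow one another on chromosome 1, and Il1a and Il1b are neighbours on chromosome 2. Il1a and Il1b had the same order of arrays, highest in colonic replicate 1 and lowest in colonic replicate 2, with Il1a in the low range throughout. On chromosome 1 the low line differed between neighbours. Il1rl2, the receptor of the IL-36 cytokines, read, in a probe set whose suffix marks possible related transcripts, 28.9 and 168 on the bone marrow arrays and 189 and 175 on the colonic arrays. There bone marrow replicate 1 was the low line, whereas colonic replicate 2 was the low line for Il1r1. The other Il1rl2 probe set, not tested, was lowest in bone marrow replicate 2, at 5.14, and reached at most 18.6. Il18r1, the IL-18 receptor chain, lay between 15.5 and 32.3.

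The genes with the most similar profiles over the 4 arrays were sought for Il1rn and Il18, the members whose brightest probe set spanned at least 2 log2 units. Likeness was the Euclidean distance of mean-centred log2 values. For Il1rn the nearest were Fyb, an adaptor protein gene of blood cells, at a distance of 0.39 (116 and 468 in bone marrow, 44.1 and 47.7 in colon), the adenylate kinase gene Ak5 at 0.40 and Stxbp6 at 0.43. For Il18 they were the matrix gene Npnt at 0.56 (4776 and 3771 in bone marrow, 1464 and 436 in colon), Mgst3 at 0.58 and the homeobox gene Shox2 at 0.60. With 4 arrays such likeness is a description of these lines.

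Of 12 other ligands, receptors and regulators of the family, 8 had a probe set and 4 a tested one. Among their 5 tested probe sets 0 passed the adjusted threshold and 0 had an unadjusted p below 0.05, with a median log2 difference of -0.26 against 0.00312 over all tested probe sets. Il1rl2 had a log2 difference of 1.15 ± 0.74 (SE). Il18rap, the second chain of the IL-18 receptor, varied within each tissue in its brighter probe set, at 169 and 613 on the bone marrow arrays and 379 and 123 on the colonic arrays. Il18bp, which binds and neutralises IL-18, was nearly level at 46.1 and 51.7 on the bone marrow arrays and 59.6 and 56.1 on the colonic arrays. Sigirr, an inhibitory receptor of the family, read 155 and 134 against 102 and 137.

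Of 27 adaptors, kinases and NF-kB genes downstream of the receptor, 23 genes were tested with 49 probe sets. None passed the adjusted threshold in limma (0 of 49), 3 probe sets higher and 3 lower in colon had an unadjusted p below 0.05 (12.2%, against 5.63% of all tested probe sets), and the median log2 difference was 0.09. Those probe sets came from 5 genes, with Tab2 read more than once, so the share is a description. Map3k8, the kinase Tpl2, was at 101 and 81.2 on the bone marrow arrays and 207 and 236 on the colonic arrays, a log2 difference of 1.17 ± 0.30 (SE, limma adjusted p = 0.651). Map3k7, the kinase TAK1, read 1870 and 1447 against 2890 and 2625 in the probe set with its lowest p, and Tab2, its binding partner, 7989 and 8783 against 5567 and 6284. Nfkbia, the NF-kB inhibitor that is itself an NF-kB target, read 6349 and 6584 against 5249 and 4960, with differences of -0.33 to -0.53 in its other tested probe sets. Myd88 overlapped between tissues, at 1569 and 963 on the bone marrow arrays and 1366 and 1194 on the colonic arrays.

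Of 17 genes of IL-1 processing and the inflammasome, 8 were tested with 11 probe sets, of which 0 passed the adjusted threshold. An unadjusted p below 0.05 was found for 2 probe sets higher in colon and 0 lower (18.2%, against 5.63% of all tested probe sets), and the median log2 difference was 0.19. Over all 27022 tested probe sets, 853 had that p with the higher signal in colon. Those of this list, from Pycard and Capn1, passed the filter through colon alone, since their bone marrow intensities lay under 33.3. The count is therefore a description. Pycard, the inflammasome adaptor ASC, read 13.0 and 19.8 on the bone marrow arrays and 56.2 and 45.7 on the colonic arrays in probe set 1417346_at (1.11 ± 0.25, SE), but -0.12 ± 0.24 (SE) was its log2 difference in the other tested probe set. Capn1, a calpain of the protease family that cleaves IL-1 alpha, had 1.12 ± 0.35 and 0.64 ± 0.37 (SE) in its tested probe sets. Casp1, the caspase that cleaves IL-1 beta and IL-18, was at 31.8 and 61.6 on the bone marrow arrays and 28.0 and 26.4 on the colonic arrays, and highest in bone marrow replicate 2, as Il1rn was. Casp8 read 1629 and 1106 against 1797 and 1939, while the sensor Nlrp3 lay between 5.30 and 17.8.

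Of 27 genes that IL-1 is known to induce in stromal cells, 19 were tested with 33 probe sets. None passed the adjusted threshold in limma (0 of 33), 3 probe sets higher and 5 lower in colon had an unadjusted p below 0.05 (24.2%, against 5.63% of all tested probe sets), and the median log2 difference was -0.15. Those probe sets came from 6 genes, with Ptgs2 and Nfkbiz read more than once, and that of Icam1 passed the filter through colon alone. The list was chosen with earlier results of these data known, so its share is a description. The lowest p-values of the list lay in both directions. Ptgs2, the inducible cyclooxygenase, had log2 differences of 2.30 ± 0.24 and 3.46 ± 0.37 (SE, limma adjusted p = 0.124 and 0.132), toward colon. The chemokine genes Ccl7 and Ccl2 had -2.40 ± 0.38 and -1.80 ± 0.37 (SE, limma adjusted p = 0.261 and 0.471), toward bone marrow.

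Icam1, a leukocyte adhesion molecule, read 10.2 and 14.2 on the bone marrow arrays and 104 and 40.6 on the colonic arrays. Tnfaip3 and Nfkbiz, NF-kB feedback genes named here after their values were seen, were higher in bone marrow, at 1066 and 2271 against 561 and 302 for Tnfaip3 and at 463 and 528 against 285 and 249 for Nfkbiz. Another tested Tnfaip3 probe set differed by only -0.35. Il6 varied within each tissue, from 16.2 in bone marrow replicate 2 to 263 in replicate 1 and from 105 to 290 in colon.

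**Figure D3:**
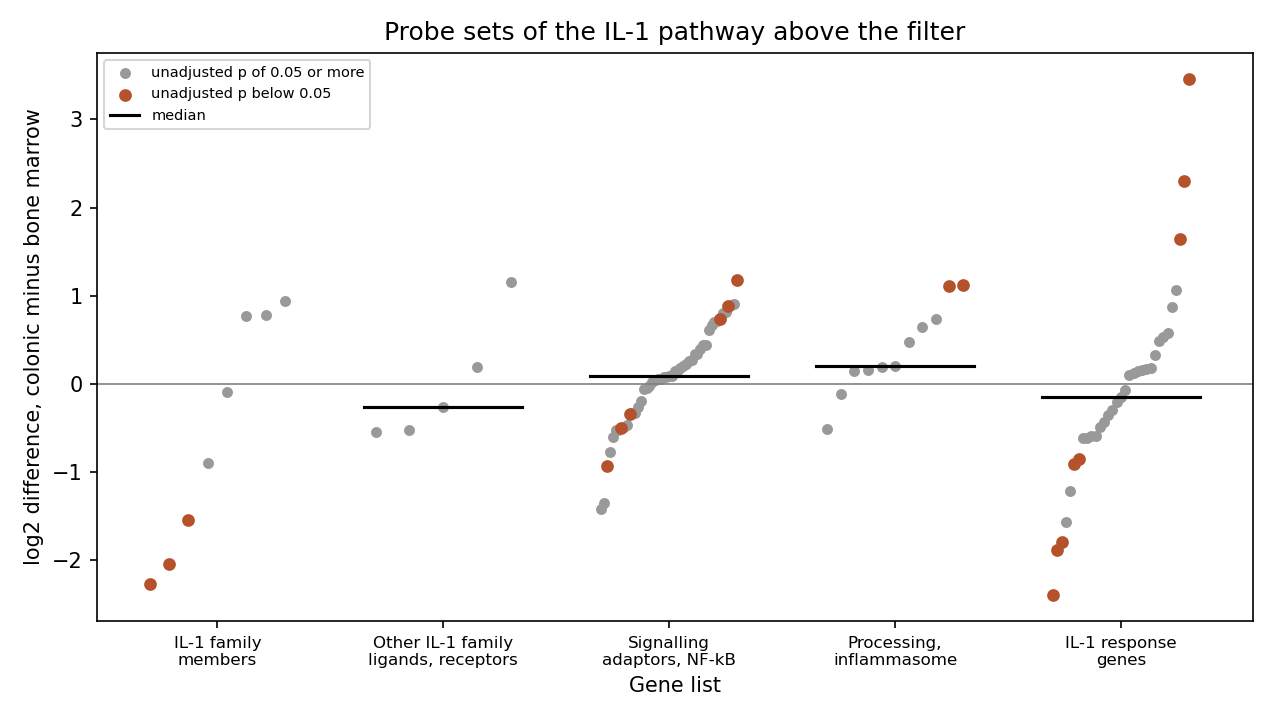
Log2 difference (colonic minus bone marrow MSC, vertical axis) of every tested probe set in the IL-1 family and in the 4 pathway lists (horizontal axis), sorted within each list; coloured points have an unadjusted limma p below 0.05 and black lines are list medians. The response genes reach from -2.40 for Ccl7 to 3.46 for Ptgs2, and none of the points passed the adjusted threshold.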

How the data were processed

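The authors deposited 1 linear intensity per probe set and array; the scale was inferred from decimals and the absence of negative values. RNA was amplified and labelled with biotin, per the labels' protocols. How the authors summarised probes, corrected background and scaled arrays is not given in the sources used here. Array medians lay within 0.0500 log2 units, so the deposited scaling was kept. From the intensities, log2(intensity + 13.6) was computed, with a pseudocount of 0.25 times the overall median. Of 45101 probe sets 64 controls were left out. The annotation gave 1 symbol to 34945, several to 932 and none to 9160, and only the first were named.

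limma 3.58.1 in R 4.3.3 (lmFit, eBayes with intensity trend) compared tissues over 27022 probe sets, two-sided, with Benjamini-Hochberg adjustment at 0.05 and 2 residual degrees of freedom. Data were simulated from these probe sets with 200 of 27022 changed, in 10 draws for each size of change. Of those changed by 2 log2 units 15.0% were recovered, by 4 56.2% and by 6 72.6%. These shares hold for that number of changed probe sets, and the number in the real comparison is unknown. Members and lists were chosen with earlier results of these data known. Named genes were all members, the 3 nearest profiles of wide-ranging members, and up to 4 genes per list by p. Others, such as Irak-pathway gene Myd88, Nlrp3, Il6 and the defining markers, were added after their values were seen. List genes without a single-symbol probe set (among them Irak4, Peli3, Chuk, Nfkb1, Nlrp1a, Nlrp1b, Nlrc4, C3, Ly6a and the Il36 genes) are not analysed here. Alternatives were other normalizations, pseudocounts, filters, gene summaries, variance models, a replicate block, leaving out each array and a threshold of 0.1.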

Additional observations from a re-analysis of the deposited data

How the results depend on the processing

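For the IL-1 family, 0 tested probe sets passed the threshold under any of the 16 alternatives run, and the smallest adjusted p among them in limma lay between 0.244 and 0.810 over those alternatives. Of 105 member differences over the alternatives 104 kept their sign, and the exception was Il1b, at 0.13 without colonic replicate 2 and down to -0.32 without colonic replicate 1. Settings that change only the filter, the variance model or the block leave a difference as it was. Leaving out 1 array cannot turn the sign where the tissues do not overlap. Much of this count was therefore fixed in advance, and it is no measure of stability. Leaving out 1 array assumes that the array left alone in its tissue varies as the others do. Over all probe sets, the count past the threshold was 0 in the main setting, 12 with a filter at the 60th percentile and 54 at an adjusted p below 0.1, and it lay between 0 and 96 with 1 array left out, at 70 without colonic replicate 1 and 96 without colonic replicate 2. A pseudocount of 1 gave -3.05 for Il1rn 1451798_at, and one equal to the median of all values -1.35. The labels do not say whether arrays with the same replicate number belong together. Deviations of same-numbered arrays correlated with r = 0.139, which is 1 value and cannot decide this. With the replicate number as a block 0 probe sets passed, and the smallest adjusted p of a family probe set was 0.493. The block raised the probe sets with an unadjusted limma p below 0.05 from 1520 to 1937. It lowered the SE of the Il18 difference from 0.77 to 0.40. Signals near the low end, as for Il1a, Il33 and Il1r2, limit what could be seen, and 3993 values in the table stand at exactly 1. With 2 arrays a tissue, a p that misses the threshold does not show equal levels.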
